A study of Mus musculus with 5 samples.

Results

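The 9 genes described here encode adipokines and batokines, proteins that fat secretes into the circulation or into its surroundings. They were taken by name from the tables of 5 libraries, and are 9 of the 52022 genes whose transcripts matched the annotation. They are Lep, Adipoq, Retn, Cfd and Rbp4, known as products of white as well as brown fat, Nrg4 and Bmp8b, known as signals sent by brown adipocytes, and Apln and Agt, precursors of peptide hormones. The RNA came from interscapular brown adipose tissue (BAT) of 3 ATF4 BKO mice and 2 WT mice, 1 library per mouse, after 3 days at 4 °C.

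ATF4 BKO mice carry Atf4 fl/fl alleles and a Cre transgene driven by the Ucp1 promoter, so the deletion is restricted to thermogenic adipocytes and the other cells of the tissue keep Atf4. WT mice are littermates with the same floxed alleles and no Cre, so loss of Atf4 and presence of the transgene cannot be told apart. All mice were on a C57Bl/6J background, 10 to 12 weeks old, labelled male, and kept at 30 °C for 7 days before the cold. ATF4 is the transcription factor of the integrated stress response, and the study sequenced BAT to look for molecular causes of the poorer thermoregulation of ATF4 BKO mice.

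Brown adipocytes burn fuel to make heat and also act as an endocrine tissue. Leptin, made mainly by lipid-rich white adipocytes, signals fat stores to the brain, and adiponectin raises the insulin sensitivity of other tissues. Factors such as neuregulin 4 and BMP8B are made at higher levels in brown than in white fat and act on liver, nerves or vessels.

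None of the 9 genes passed the test between genotypes, and those with the smallest p-values differed in opposite directions. Lep was 5.93-fold lower in ATF4 BKO mice on the CPM scale. Its 3 ATF4 BKO values, from 48, 9 and 65 counts, all lay below the 2 WT values. Adipoq was 1.46-fold higher, and its 3 ATF4 BKO values all lay above the 2 WT values. Of all 16450 genes tested, 10.6% lay below and 8.95% above in the same way. Bmp8b had a lower mean, and Agt, Rbp4 and Cfd had higher means, with CPM values that overlapped between genotypes, and Nrg4 and Retn had fitted log2 fold changes of 0.21 and -0.03. ATF4 BKO replicate 2 had the highest or the lowest value of all 5 mice for 7 of the 9 genes.

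The libraries held between 24698337 and 32452751 estimated counts. Levels are given in 2 units. TPM (transcript abundance as a share of the library) is scaled for transcript length and allows levels of different genes to be compared. CPM is counts relative to library size after TMM scaling, and is used for differences between mice. Atf4 itself, listed by replicate number, had 739, 1478 and 697 counts in the knockout group and 9028 and 7674 in the WT mice, so the labels fit the targeted gene. On the log2 scale its fold change was -2.82 ± 0.34 (SE), with an adjusted p of 0.671 in edgeR and 9.72e-12 in DESeq2. Ucp1, which defines brown adipocytes, lay between 8039 and 9754 TPM in ATF4 BKO mice and at 8372 and 10072 TPM in WT mice. ATF4 BKO replicate 1 went against its label, with 4598 counts of Xist, an RNA of the inactive X chromosome, beside at most 7 in the other mice, and 34 counts over 4 Y-linked genes beside at least 3284. Skeletal muscle markers stood apart in WT replicate 2: the 12 genes summed to 2216 CPM there, to 96.0 CPM in WT replicate 1 and to between 3.27 and 28.8 CPM in ATF4 BKO mice. All 12 had every ATF4 BKO value under both WT values and an unadjusted p under 0.05, edgeR called 0 of them and DESeq2 called 6 lower, and Myh4 was the most abundant. Fold changes of the 9 genes are given with and without ATF4 BKO replicate 1 and WT replicate 2. Sample names carry 1 of 2 prefixes of unstated meaning. ATF4 BKO replicate 3 and WT replicate 2 have the second prefix and the other mice the first.

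Promoters are shown for the 2 genes whose genotypes did not overlap in CPM and for the gene that held an ATF4 motif. Each sequence is the 250 bases before the RefSeq start (GRCm38.p6), written 5′ to 3′ on the strand of the gene, with motif matches in capitals. The Lep window (chr6:29059971-29060220, plus strand) has a match to the C/EBP motif in capitals, 55 bases before the start. That motif was chosen after the promoters were read. C/EBP proteins are transcription factors of fat cells that can pair with ATF4. The Adipoq window (chr16:23146286-23146535, plus strand) has no match. The window of the distal Rbp4 start (chr19:38125322-38125571, minus strand) has a match to CARE, the element to which ATF4 and C/EBP proteins bind together, in capitals, 76 bases before the start.
Lep: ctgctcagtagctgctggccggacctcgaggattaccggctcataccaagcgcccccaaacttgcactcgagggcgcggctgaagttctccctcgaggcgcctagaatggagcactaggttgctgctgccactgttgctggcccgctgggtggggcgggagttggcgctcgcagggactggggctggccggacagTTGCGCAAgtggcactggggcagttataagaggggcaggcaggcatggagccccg
Adipoq: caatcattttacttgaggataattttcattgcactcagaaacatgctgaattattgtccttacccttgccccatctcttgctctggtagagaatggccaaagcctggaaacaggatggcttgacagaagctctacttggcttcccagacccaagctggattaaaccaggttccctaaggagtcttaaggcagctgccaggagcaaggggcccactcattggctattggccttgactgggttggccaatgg
Rbp4: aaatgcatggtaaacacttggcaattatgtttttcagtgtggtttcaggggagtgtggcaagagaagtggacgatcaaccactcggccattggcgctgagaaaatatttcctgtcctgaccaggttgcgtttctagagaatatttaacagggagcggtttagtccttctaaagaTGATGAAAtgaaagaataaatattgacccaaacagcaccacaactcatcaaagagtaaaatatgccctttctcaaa

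Both strands of the 10 promoter windows of the 9 genes were searched. CARE, spelled TGATGNAA, was found in 1 of them and in 3.45% of all 32851 RefSeq promoters. The C/EBP motif, spelled TTGCNNAA, was found in 2 of the windows and in 9.56% of all promoters. The matches are at Lep and 128 bases before the proximal Rbp4 start. This motif was chosen after the promoters were read, so its count here cannot be weighed against that share. The cAMP response element TGACGTCA was found in 0 of the 10 and in 1.55% of all. No match overlapped a match to another motif. These are letters in a window, and binding was not measured.

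In WT mice the order of levels by mean TPM was Adipoq, Cfd, Nrg4, Bmp8b, Retn, Rbp4, Lep, Apln and Agt. Adipoq at 326 ± 43.1 TPM (SD, n = 2) and Cfd at 278 ± 49.3 TPM overlapped between mice. Bmp8b overlapped with Retn, and Retn with Rbp4. The other neighbours in the order did not overlap. The place of Nrg4 rests on the sum over its 13 annotated transcripts. Its main protein-coding transcript, Nrg4-213, had 11.6 and 12.2 TPM in the WT mice, below the levels of Bmp8b, Retn and Rbp4. In ATF4 BKO mice, Adipoq and Cfd again led and overlapped, Nrg4, Rbp4, Retn and Bmp8b formed a middle set whose neighbours overlapped, and Apln, Agt and Lep came last and overlapped. Lep was the 7th in WT mice and the 9th in ATF4 BKO mice. The 9 genes together held 897, 1171 and 895 TPM in the ATF4 BKO mice and 774 and 789 TPM in the WT mice. Adipoq and Cfd made up between 75.2% and 87.7% of that sum in every mouse.

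**Figure D1:**
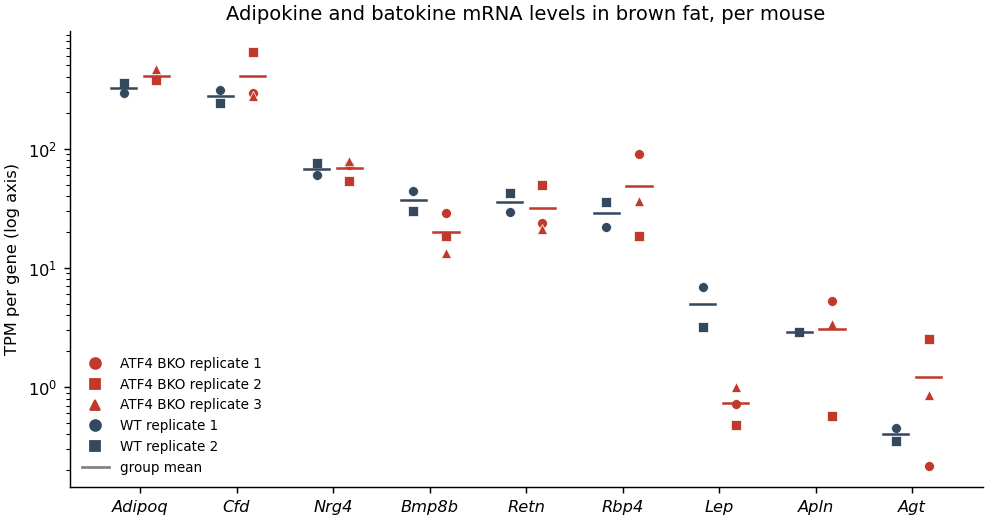
Level of each gene in TPM (log axis) for the 3 ATF4 BKO mice (red) and the 2 WT mice (blue), with a marker per replicate and a line at the group mean. Lep is at or below 0.992 TPM in every ATF4 BKO mouse and at or above 3.17 TPM in both WT mice, while Agt spans 0.217 to 2.55 TPM within the ATF4 BKO mice.

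Lep encodes leptin, the hormone by which fat signals energy stores to the hypothalamus. The gene (ENSMUSG00000059201.12) lies at chr6:29060220-29073877 on the plus strand of GRCm38. Its level was 0.719, 0.477 and 0.992 TPM in ATF4 BKO replicates 1, 2 and 3 and 6.86 and 3.17 TPM in WT replicates 1 and 2. All ATF4 BKO values were thus under the lower WT value. These levels rest on few counts, 48, 9 and 65 in the ATF4 BKO mice and 383 and 209 in the WT mice. The means were 0.730 ± 0.258 TPM (SD, n = 3) and 5.02 ± 2.61 TPM (SD, n = 2). The log2 fold change was -2.57 ± 0.73 (SE, 95% interval -4.36 to -0.78), and the adjusted p was 0.831 in edgeR and 0.0837 in DESeq2. Lep stood 242nd of 16450 genes by its unadjusted p. Its log2 fold change was -2.86 without ATF4 BKO replicate 1 and -2.98 without WT replicate 2, and ranged from -2.98 to -1.98 with each mouse left out in turn. Since the genotypes did not overlap, the log2 CPM of ATF4 BKO mice had to be lower within both prefixes. The difference was -3.72 in the first and -1.47 in the second, which holds only ATF4 BKO replicate 3 and WT replicate 2. In all, 97.2% of its counts fell on the transcript Lep-201. The short Lep-202 weighed more in TPM, with 0.381 of the 0.477 TPM of ATF4 BKO replicate 2, from 2 counts. Lep-201 alone had 0.719, 0.0963 and 0.749 TPM in the ATF4 BKO mice and 4.65 and 2.52 TPM in the WT mice. The spread among ATF4 BKO mice was thus wider on Lep-201 than in the summed TPM.

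Lep was the gene of the 9 with the widest range over the mice, 4.97 log2 CPM. The tested genes whose pattern over the 5 mice was nearest to it, by the root mean square difference of mean-centred log2 CPM, were Smtnl2 (0.56), Tcam1 (0.62) and Gm48113 (0.74). Smtnl2 had 7.51, 1.14 and 3.80 CPM in the ATF4 BKO mice and 15.3 and 10.2 CPM in the WT mice. The other two were below 1.30 CPM in every mouse.

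White adipocyte markers were examined beside Lep, since leptin marks white fat. Of 9 such genes 6 were tested, 3 were lower and 3 higher, with a median log2 fold change of 0.08. They summed to between 228 and 427 CPM in ATF4 BKO mice and to 362 and 433 CPM in WT mice. The highest of them was Npr3, a receptor that clears natriuretic peptides. It had 207, 393 and 336 CPM in the ATF4 BKO mice and 337 and 406 CPM in the WT mice. Npr3 thus made up most of the sum in every mouse. Nnat, named after its values were seen, had 3.84, 5.41 and 1.25 CPM against 8.58 and 11.5 CPM. It was lower in every ATF4 BKO mouse, with a log2 fold change of -1.52. No other tested marker of this list lay apart, and 10.6% of all genes lay below in this way. Hoxc10 was at 0 in every mouse, and Hoxc9 and Tcf21 were too low to test. In bulk tissue, fewer cells of a type and less RNA per cell cannot be told apart, and the part of white adipocytes in the Lep values was not tested.

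Adipoq encodes adiponectin, an insulin-sensitizing hormone that adipocytes assemble into multimers. The gene (ENSMUSG00000022878.5) lies at chr16:23146536-23158028 on the plus strand. Its level was 383, 379 and 466 TPM in ATF4 BKO mice and 295 and 356 TPM in WT mice, so every ATF4 BKO mouse was above both WT mice. The closest mice were ATF4 BKO replicate 2 and WT replicate 2. The means were 409 ± 49.0 TPM (SD, n = 3) and 326 ± 43.1 TPM (SD, n = 2). Between genotypes the log2 fold change was 0.55 ± 0.19 (SE, 95% interval 0.09 to 1.00), with an adjusted p of 0.911 in edgeR and 0.480 in DESeq2. It was 0.54 without ATF4 BKO replicate 1 and 0.72 without WT replicate 2, and ranged from 0.41 to 0.72 over the mice left out. Within the prefixes, the difference in log2 CPM was 0.63 and 0.56. Of the 9 genes, Adipoq varied least among ATF4 BKO mice, with a highest value 1.23 times the lowest in TPM.

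Most markers of adipocytes had higher fitted values beside Adipoq, and none passed the test. Of 11 shared by brown and white fat, 9 were higher and 2 lower, the median was 0.13 on the log2 scale, and they summed to between 21910 and 27377 CPM in ATF4 BKO mice and to 19683 and 22994 CPM in WT mice. The highest, Fabp4, a fatty acid carrier, had 6977, 6961 and 8745 CPM against 6186 and 6446 CPM. The 13 brown adipocyte markers had a median of 0.16 and summed to between 14005 and 17789 CPM against 13981 and 15733 CPM. The part of the adipocyte share of the tissue in the Adipoq values was not tested.

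Over all 16450 genes tested, edgeR called 0.00608% (1 gene, Cacna1i, higher in ATF4 BKO mice) and DESeq2 called 0.736%. Each called 0 of the 9. At an unadjusted p under 0.05, edgeR had 5.23% of all genes and 2 of the 9, Lep and Adipoq. In CPM, 10.6% of all genes had all ATF4 BKO mice under the 2 WT mice, as Lep did, and 8.95% had every ATF4 BKO mouse above both, as Adipoq did. In TPM the corresponding shares were 24.9% below and 3.02% above, and Bmp8b joined Lep among the genes below. With fewer mice, groups lie apart more often. Without ATF4 BKO replicate 1, 2 of the 9 genes lay below in CPM, Lep and Bmp8b, beside 16.4% of all genes, and 2 above, Adipoq and Agt, beside 16.3%. Without WT replicate 2, Lep and Bmp8b lay below, beside 29.4% of all genes, and Adipoq above, beside 28.4%. Of the 9 genes 3 were lower and 6 higher by their fitted values, with a median log2 fold change of 0.31, beside 0.0077 over all genes tested. That median depended on the scale: it was 0.17 when counts were scaled by library totals (all genes -0.10), 0.0013 on log2(TPM + 1) (all genes -0.12) and 0.0012 on log2(TPM + 0.1) (all genes -0.17). It was 0.11 without ATF4 BKO replicate 1 and 0.34 without WT replicate 2.

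**Figure D2:**
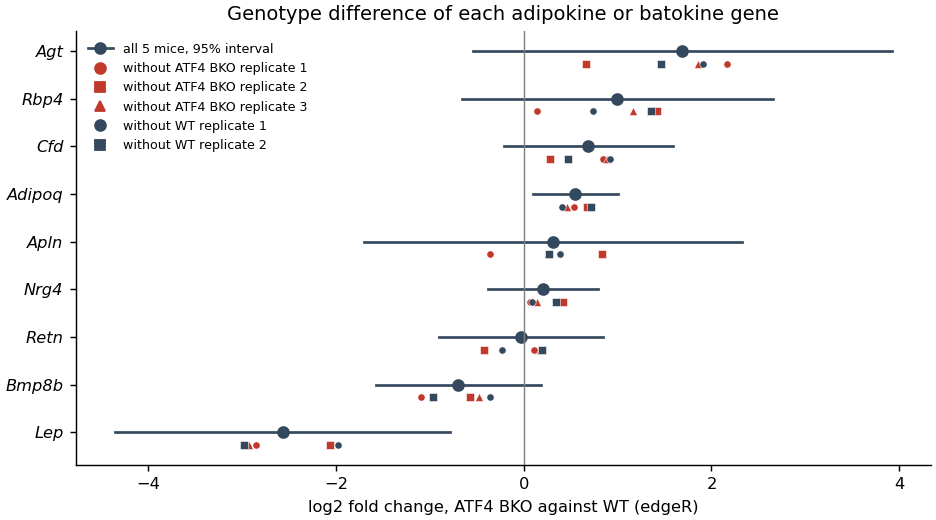
Log2 fold change of ATF4 BKO against WT for each gene (edgeR), with its 95% interval from all 5 mice and, under it, the values with 1 mouse left out. Only the intervals of Lep (-4.36 to -0.78) and Adipoq (0.09 to 1.00) lie on one side of 0, and no gene passed the adjusted test.

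Retn encodes resistin, a cysteine-rich hormone that adipocytes secrete in mice. The gene (ENSMUSG00000012705.16) lies at chr8:3655770-3660110 on the plus strand. Its level was 23.6, 50.0 and 21.2 TPM in ATF4 BKO mice and 29.6 and 42.4 TPM in WT mice. The highest mouse was ATF4 BKO replicate 2 and the other 2 ATF4 BKO mice were lowest, so the WT values lay inside the ATF4 BKO range. The log2 fold change was -0.03 ± 0.36 (SE, 95% interval -0.90 to 0.85, adjusted p = 0.994 in edgeR). It was 0.11 without ATF4 BKO replicate 1 and 0.19 without WT replicate 2. The difference in log2 CPM was 0.35 within the first prefix and -0.75 within the second. Retnla, a related gene, had 21.4, 5.20 and 0.875 CPM in the ATF4 BKO mice and 3.29 and 2.51 CPM in the WT mice, an order unlike that of Retn.

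Cfd encodes adipsin, complement factor D, a serine protease that starts the alternative complement pathway. The gene (ENSMUSG00000061780.6) lies at chr10:79890853-79892655 on the plus strand. Its level was 292, 648 and 274 TPM in ATF4 BKO mice and 313 and 243 TPM in WT mice. At the top stood ATF4 BKO replicate 2 alone, and the other 4 mice were mixed. Between genotypes the log2 fold change was 0.69 ± 0.37 (SE, 95% interval -0.21 to 1.59, adjusted p = 0.911 in edgeR), and 0.27 without ATF4 BKO replicate 2. It was 0.84 without ATF4 BKO replicate 1 and 0.47 without WT replicate 2. The difference in log2 CPM was 0.61 and 0.42 within the prefixes. Counts were split over 2 protein-coding transcripts, 64.4% on Cfd-201 and 35.6% on Cfd-202, and Cfd-201 held between 62.1% and 68.0% in every mouse.

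Rbp4 encodes retinol-binding protein 4, the carrier of vitamin A in blood. The gene (ENSMUSG00000024990.13) lies at chr19:38116629-38125281 on the minus strand, and it is the gene whose distal promoter was shown with a CARE match. Its level was 91.0, 18.7 and 36.7 TPM in ATF4 BKO mice and 22.0 and 35.9 TPM in WT mice. ATF4 BKO replicate 1 was highest and ATF4 BKO replicate 2 lowest. The log2 fold change was 0.99 ± 0.68 (SE, 95% interval -0.66 to 2.65, adjusted p = 0.920 in edgeR), and it was 0.15 without ATF4 BKO replicate 1, the library that went against its label, and 1.35 without WT replicate 2. Within the prefixes, the difference in log2 CPM was 1.07 and 0.30. Rbp4-202 held 86.7%, 70.6% and 78.3% of the counts in the ATF4 BKO mice and 84.6% and 84.7% in the WT mice, and was lowest in the mouse with the lowest Rbp4 level.

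Nrg4 encodes neuregulin 4, a ligand of ERBB receptors that brown adipocytes send to the liver and to nerves. The gene (ENSMUSG00000032311.17) lies at chr9:55220222-55326844 on the minus strand. Its level was 73.2, 53.8 and 78.2 TPM in ATF4 BKO mice and 60.2 and 75.6 TPM in WT mice. The genotypes overlapped across nearly the whole range. The means were 68.4 ± 12.9 TPM (SD, n = 3) and 67.9 ± 10.9 TPM (SD, n = 2), with a log2 fold change of 0.21 ± 0.24 (SE, 95% interval -0.38 to 0.79, adjusted p = 0.942 in edgeR). It was 0.07 without ATF4 BKO replicate 1 and 0.34 without WT replicate 2, and the difference in log2 CPM was 0.24 and 0.21 within the prefixes. Nrg4 had the smallest range of the 9 genes over all mice, 0.72 log2 CPM.

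The level of the whole gene does not show how much protein-coding Nrg4 mRNA there was, because its counts were spread over 13 annotated transcripts. Processed transcript Nrg4-209 took the largest share, 31.7% of all Nrg4 counts, followed by the protein-coding Nrg4-213 with 24.4%, Nrg4-207, annotated for nonsense-mediated decay, with 16.3%, and Nrg4-210 with 14.1%. Protein-coding transcripts together held 21.9%, 16.3% and 25.6% of the counts in the ATF4 BKO mice and 31.8% and 25.9% in the WT mice. The genotypes did not overlap, with ATF4 BKO replicate 3 and WT replicate 2 close to each other. How often other genes lie apart in this share was not computed, so the separation has no background to be read against. The means were 21.3 ± 4.65% (SD, n = 3) and 28.9 ± 4.16% (SD, n = 2). The exact permutation test gave p = 0.2 when two-sided and p = 0.1 when one-sided. The one-sided value is the smallest that 3 mice against 2 allow. Neither form of the test could have gone under 0.05, so it cannot decide whether the share differs. Kallisto estimates how reads that fit several transcripts divide among them, so this share is less certain than the sum. Nrg4 also shares 7.25% of its 31-base words with other genes, mainly its neighbour Fbxo22.

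**Figure D3:**
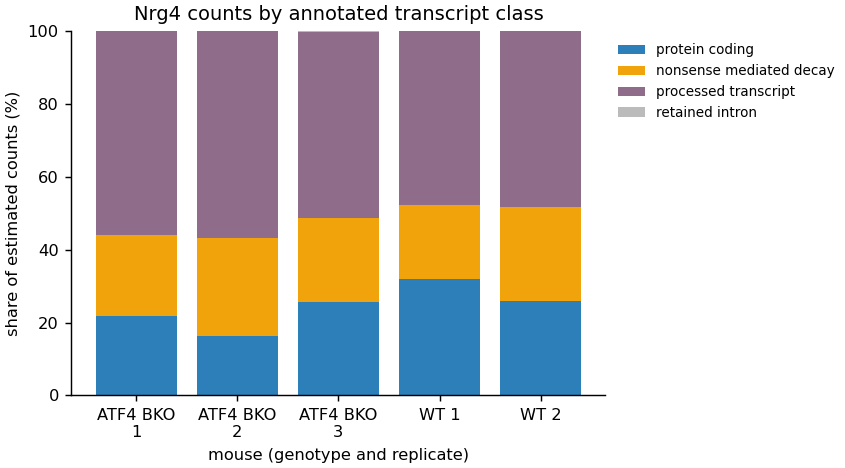
Share of Nrg4 estimated counts (percent) in each annotated transcript class, one bar per mouse. Protein-coding transcripts hold 16.3% to 25.6% in the 3 ATF4 BKO mice and 25.9% and 31.8% in the 2 WT mice.

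Bmp8b encodes a member of the TGF-beta family that raises the response of brown fat to sympathetic signals. The gene (ENSMUSG00000002384.2) lies at chr4:123105165-123132099 on the plus strand. Its level was 28.6, 18.4 and 13.4 TPM in ATF4 BKO mice and 44.5 and 30.2 TPM in WT mice, with ATF4 BKO replicate 1 just below WT replicate 2. In CPM, ATF4 BKO replicate 1 at 74.4 lay above WT replicate 2 at 64.7, so the genotypes overlapped on that scale. Between genotypes the log2 fold change was -0.70 ± 0.36 (SE, 95% interval -1.58 to 0.19), with an adjusted p of 0.911 in edgeR and 0.976 in DESeq2. It was -1.10 without ATF4 BKO replicate 1, -0.97 without WT replicate 2 and -0.36 without WT replicate 1. Within the prefixes, the difference in log2 CPM was -0.80 and -0.94. Its paralog Bmp8a shares part of the 10.1% of Bmp8b words found in other genes, and had at most 2 counts in any mouse, so its values were too low to test.

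Apln encodes apelin, a peptide that acts on vessels and heart through the receptor APLNR. The gene (ENSMUSG00000037010.7) lies at chrX:48025146-48034853 on the minus strand. Its level was 5.28, 0.571 and 3.36 TPM in ATF4 BKO mice and 2.92 and 2.87 TPM in WT mice. The WT mice were within 1.01-fold of each other, while ATF4 BKO mice differed by up to 9.25-fold and lay on both sides of them. The log2 fold change was 0.31 ± 0.82 (SE, 95% interval -1.70 to 2.32, adjusted p = 0.977 in edgeR), and it was -0.36 without ATF4 BKO replicate 1, 0.83 without ATF4 BKO replicate 2 and 0.27 without WT replicate 2. Within the prefixes, the difference in log2 CPM was -0.59 and 0.47. On the log2(TPM + 1) scale the difference was -0.15. The genes nearest to Apln in pattern were Gm42927 (root mean square difference 0.24), 4933427I04Rik (0.25) and Dusp14 (0.26), a phosphatase. Dusp14 had 3.53, 0.498 and 3.06 CPM in the ATF4 BKO mice and 2.50 and 1.74 CPM in the WT mice. 4933427I04Rik was at or below 0.442 CPM in every mouse. Apln is a gene of endothelial cells as well, and 8 of the 9 endothelial markers were tested and all 8 were higher, and the median log2 difference was 0.34. They summed to between 1104 and 1392 CPM in ATF4 BKO mice and to 877 and 1039 CPM in WT mice, and Kdr, the VEGF receptor and highest of them, had 386, 226 and 446 CPM against 275 and 287 CPM. Their part in the Apln values was not tested.

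Agt encodes angiotensinogen, from which renin cuts the precursor of angiotensin II. The gene (ENSMUSG00000031980.9) lies at chr8:124556534-124569706 on the minus strand. Its level was 0.217, 2.55 and 0.853 TPM in ATF4 BKO mice and 0.454 and 0.355 TPM in WT mice, from 8, 102, 40, 20 and 16 counts in that order. ATF4 BKO replicate 2 was highest and ATF4 BKO replicate 1 lowest, with both WT mice between them. Between genotypes the log2 fold change was 1.69 ± 0.91 (SE, 95% interval -0.54 to 3.92, adjusted p = 0.912 in edgeR). It was 0.66 without ATF4 BKO replicate 2, 2.16 without ATF4 BKO replicate 1 and 1.47 without WT replicate 2, and the difference in log2 CPM was 0.83 and 1.39 within the prefixes. Agt differed 11.8-fold between ATF4 BKO mice, the widest within-genotype range of the 9 genes in TPM. Its nearest genes in pattern were Btc (0.17), an ERBB ligand, Cyp2e1 (0.21), a cytochrome of xenobiotic metabolism, and Slc10a6 (0.29). Cyp2e1 had 17.7, 164 and 74.1 CPM in the ATF4 BKO mice and 23.7 and 20.6 CPM in the WT mice.

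For every gene but Lep and Adipoq, the highest ATF4 BKO value exceeded the lowest by a larger factor than that between the genotype means in TPM. The exception of Lep did not hold in CPM. There its ATF4 BKO values were 2.12, 0.320 and 2.19, beside a 5.93-fold difference between the genotype means. ATF4 BKO replicate 2 was the highest of the 5 mice for Retn, Cfd and Agt and the lowest for Lep, Rbp4, Nrg4 and Apln, whereas no other mouse was extreme for more than 4 genes. Among ATF4 BKO mice, the highest TPM was 11.8 times the lowest for Agt, 9.25 times for Apln and 4.87 times for Rbp4. It was 2.36 times the lowest for Cfd and Retn and 1.45 times for Nrg4. Macrophage markers were highest in ATF4 BKO replicate 2, where the 9 genes summed to 1376 CPM, beside 831 and 495 CPM in the other ATF4 BKO mice and 202 and 1138 CPM in the WT mice. All 9 were tested, all 9 had higher fitted values, with a median of 0.41, and Lyz2 was the most abundant. The 7 fibroblast and preadipocyte markers, led by Col3a1, summed to 2470, 2280 and 735 CPM in the ATF4 BKO mice and to 873 and 1651 CPM in the WT mice. The part of these cell types in the values of the 9 genes was not tested.

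**Figure D4:**
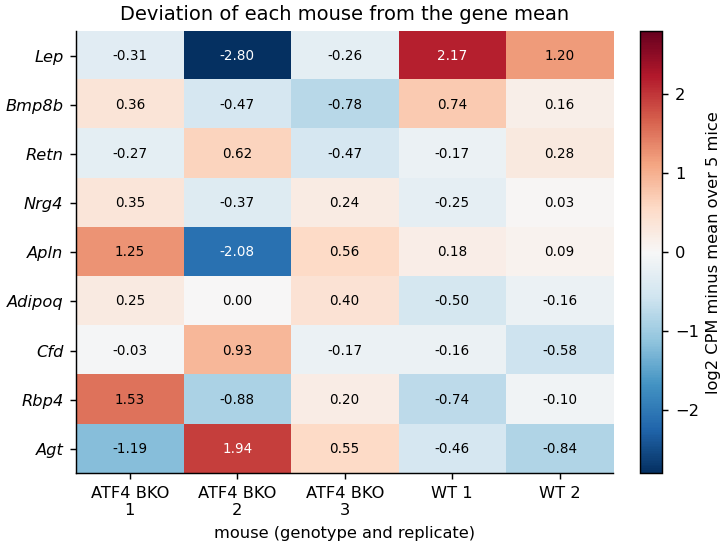
Heat map of each mouse's log2 CPM minus the mean of the 5 mice for each of the 9 genes, red above and blue below the mean. ATF4 BKO replicate 2 stands out for Lep (-2.80), Apln (-2.08) and Agt (1.94), in different directions.

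Other factors known to be secreted by brown fat were taken as a list of 22 genes, of which 18 were tested. Of these 7 were lower and 11 higher, with a median log2 fold change of 0.09. edgeR called 0 of them, 3 had an unadjusted p under 0.05, and DESeq2 called 1. That gene was Fgf21, a stress hormone and known ATF4 target, with 1.24, 0.890 and 0.572 CPM in the ATF4 BKO mice and 5.13 and 16.1 CPM in the WT mice and a log2 fold change of -3.57 ± 0.57 (SE, adjusted p = 0.671 in edgeR). The Fgf21 value was -2.53 without WT replicate 2, -4.16 without WT replicate 1 and -3.86 without ATF4 BKO replicate 1. Besides Fgf21, Epdr1 and Edn1 had genotypes that did not overlap. With Fgf21, 2 of the 18 lay below and 1 above, beside 10.6% and 8.95% of all genes. Epdr1, ependymin-related 1, had 2.21, 2.35 and 0.741 CPM against 5.32 and 5.49 CPM (-1.62 ± 0.48). Edn1, the vasoconstrictor endothelin 1, had 5.43, 5.48 and 7.17 CPM against 2.56 and 3.30 CPM (1.04 ± 0.26). Without ATF4 BKO replicate 1 and without WT replicate 2, Epdr1 was -1.81 and -1.61, and Edn1 was 1.11 and 1.22. Gdf15, another stress hormone, had 1.46, 32.4 and 1.95 CPM against 57.4 and 20.9 CPM. ATF4 BKO replicate 2 lay between the WT mice for Gdf15, and this gene was named after its values were seen.

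The list of other adipokines held 26 genes, of which 24 were tested, 4 lower and 20 higher, with a median of 0.25. edgeR called 0, with 4 at an unadjusted p under 0.05, and DESeq2 called Lcn2, lipocalin 2 (-2.53 ± 0.70 SE, DESeq2 adjusted p = 0.0286). Its CPM was 2.08, 4.38 and 3.43 in the ATF4 BKO mice and 32.6 and 5.81 in the WT mice, so the size rested on WT replicate 1 and was -0.80 without it, beside -3.31 without WT replicate 2 and -2.30 without ATF4 BKO replicate 1. C1qtnf1 and C1qtnf9, relatives of adiponectin, and Gpx3, a secreted glutathione peroxidase, had every ATF4 BKO mouse above both WT mice. Their log2 fold changes were 0.71, 0.45 and 0.60. In this list 3 of the 24 lay above and 1, Lcn2, below, beside 8.95% and 10.6% of all genes.

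Receptors and surface binding proteins for the 9 hormones made a list of 24 genes, of which 19 were tested. There were 8 lower and 11 higher, with a median log2 fold change of 0.17. Both tools called 0, with 1 gene at an unadjusted p under 0.05 in edgeR. That gene was Cdh13, T-cadherin, which binds adiponectin, with 55.4, 56.8 and 69.6 CPM in the ATF4 BKO mice and 46.1 and 44.4 CPM in the WT mice (0.42 ± 0.15 SE, 0.48 without ATF4 BKO replicate 1 and 0.38 without WT replicate 2), so it lay on the same side as Adipoq. Bmpr2 (0.10) and Acvr2b (0.22), type II receptors of the BMP family, were higher without overlap. Adipor1 (-0.19), an adiponectin receptor, and Bmpr1a (-0.27), a type I BMP receptor, were lower without overlap. The unadjusted p of these genes in edgeR was 0.402, 0.446, 0.177 and 0.0864. With Cdh13, 3 of the 19 lay above and 2 below, beside 8.95% and 10.6% of all genes.

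Proteins that assemble, cleave or carry the 9 hormones made a list of 19 genes, of which 16 were tested, 6 lower and 10 higher, with a median log2 fold change of 0.15. Both tools called 0, with 1 gene at an unadjusted p under 0.05 in edgeR. It was Ero1a, an oxidase of the endoplasmic reticulum that helps release adiponectin multimers. Ero1a had 41.6, 37.9 and 40.0 CPM in the ATF4 BKO mice and 119 and 56.9 CPM in the WT mice. It was the only gene of this list without overlap, and 10.6% of all genes lay below in this way. Its log2 fold change was -1.14 ± 0.29 (SE) and -0.50 without WT replicate 1, -1.17 without ATF4 BKO replicate 1 and -1.59 without WT replicate 2. So Adipoq was higher in all 3 ATF4 BKO mice while Ero1a was lower in all 3, and Erp44, which retains adiponectin in the endoplasmic reticulum, had a log2 fold change of -0.03. The medians of the brown fat factors, the other adipokines, the receptors and these proteins were 0.20, 0.22, 0.13 and 0.16 without ATF4 BKO replicate 1 and 0.03, 0.36, 0.19 and 0.27 without WT replicate 2. Without WT replicate 1 they were 0.03, 0.17, -0.06 and -0.07 (all genes 0.01). On log2(TPM + 1) they were -0.10, 0.03, -0.04 and -0.03, where the median of all genes was -0.12, below each of them. The sign of these medians was thus not stable, other than for the other adipokines.

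**Figure D5:**
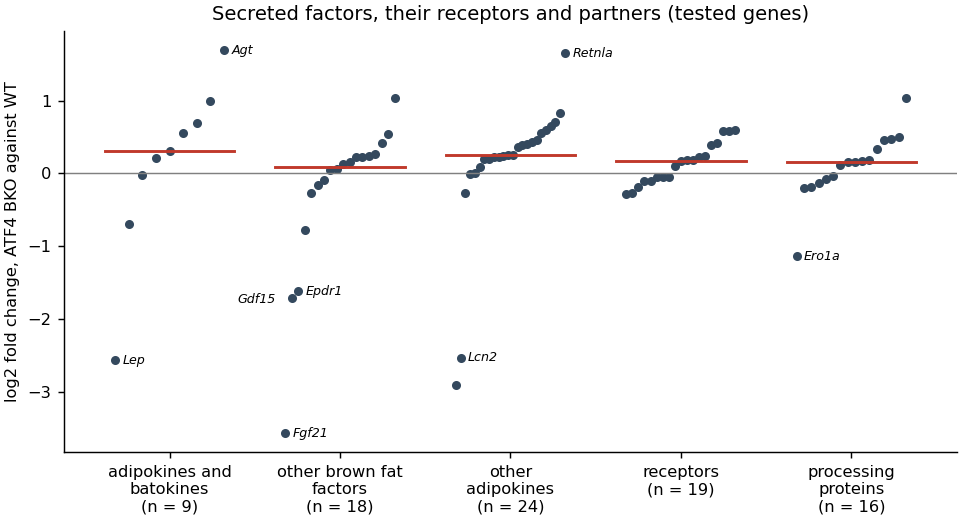
Log2 fold change (edgeR) of each tested gene in the 9 adipokines and batokines and in 4 related lists, with a red line at each median. The medians are 0.31, 0.09, 0.25, 0.17 and 0.15, and names are given for some of the genes far from 0, among them Lep, Fgf21 and Lcn2 below and Agt above.

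The remaining cell type lists were as follows. The 6 pericyte and smooth muscle markers, led by Rgs5, had a median log2 fold change of 0.27, and the 4 Schwann cell markers, led by Mbp, had one of 0.70. The 3 neutrophil markers, led by S100a9, summed to at most 9.80 CPM, and the 5 lymphocyte markers, led by Cd79a, to at most 4.42 CPM. Mesothelial and epithelial markers, 3 genes each, stayed at or below 0.392 and 0.397 CPM in sum and were not tested.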

How the data were processed

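BAT RNA of 3 ATF4 BKO and 2 WT mice was sequenced by the authors from stranded mRNA libraries. The authors ran Kallisto (0.45.0, per the submitters' processing notes, which also name mm10) and deposited, for each mouse, estimated counts per transcript with no normalization between mice, together with the effective length of each transcript. The same deposited tables hold TPM, which Kallisto derives from estimated counts and effective lengths. The transcript annotation they used is not given in the sources used here.

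Estimated counts and TPM were summed per gene with GENCODE M21 (GRCm38), and counts were rounded. Of 141450 transcripts, 138191 matched by identifier, and the 3259 others, with 1.16% to 1.29% of a mouse's counts, were left out. For every pair of libraries the chi-square was 49.9 or more times its degrees of freedom, so none was counted as a repeat. The total counts of 24698337 to 32452751 per mouse limit the precision of low genes such as Lep and Agt.

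Genes reaching 10 counts in 2 or more mice, 16450 of them, were tested with edgeR 4.0.16 in R 4.3.3 (TMM, quasi-likelihood test, genotype alone), with Benjamini-Hochberg adjustment over all of them and a threshold of 0.05. The p-values weigh the genotype difference against the spread between these mice, which is estimated per gene with information shared over all genes tested. Alternatives were DESeq2 1.42.0, other scalings, no count filter, length-scaled counts, limma 3.58.1 on log2(TPM + 1) and log2(TPM + 0.1), each mouse left out, and blocks for replicate number and name prefix.

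The 9 genes and the lists were chosen with earlier results of these data known. From each list of secreted factors, receptors and processing proteins, up to 3 lower and 3 higher genes by smallest unadjusted p were named among those whose genotypes did not overlap in CPM. The most abundant gene of each cell type list was named, except of the mesothelial and epithelial lists, and the 3 nearest genes in pattern of the 3 genes with the widest range. Gdf15, Nnat, Erp44, Retnla, Bmp8a, Hoxc9, Hoxc10 and Tcf21 were named after their values were seen, and 1 listed gene is not reported here by name. The possible sharing of reads was measured by the 31-base words that genes have in common over the annotated transcripts of the tables. Motifs were searched in the 250 bases before each RefSeq start (GRCm38.p6), and the C/EBP motif was chosen after the promoters were read.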

Additional observations from a re-analysis of the deposited data

How the results depend on the processing

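None of the 9 genes was called in any of the 14 alternatives, and 7 of them, all but Retn and Apln, kept their direction in every one. For Nrg4 the log2 fold change was 0.0013 on log2(TPM + 1) and 0.0012 on log2(TPM + 0.1), too small to carry a direction. Retn ranged from -0.42 to 0.19 with each mouse left out (log2 fold change). It was 0.11 and 0.18 without the first and the third ATF4 BKO mouse and 0.19 without WT replicate 2. Apln was -0.15 on log2(TPM + 1) and -0.37 on log2(TPM + 0.1), and ranged from -0.36 (without ATF4 BKO replicate 1) to 0.83. Replicate numbers are shared between genotypes, but the labels do not say what a number marks, and only the mice numbered 1 also share a name prefix. Deviations of same-numbered mice correlated at 0.0473 and 0.200, and these 2 pairs do not settle whether the numbers pair the mice, so the numbers were not used as pairs. With a replicate block, Retn was 0.13, Apln was -0.48, and the genes called over the table were 0, with 711 at an unadjusted p under 0.05. The prefix block also called 0 genes, with 876 at an unadjusted p under 0.05. Over the table, 1 gene was called by edgeR with all mice, 121 by DESeq2, 8 with no count filter, 0 and 2 by limma on log2(TPM + 1) and log2(TPM + 0.1), and 0 to 23 with 1 mouse left out (23 without WT replicate 1). Of the 9 genes, the number below both WT mice was 2 in TPM and 1 to 2 with 1 mouse left out, beside 15.1% to 29.4% of all genes, and the number above was 1 to 4, beside 14.4% to 28.4% (4 without ATF4 BKO replicate 2, beside 17.8%). The median of the 9 genes was 0.0013 on log2(TPM + 1), 0.0012 on log2(TPM + 0.1), 0.17 with library totals alone and 0.11 to 0.41 with 1 mouse left out. The median of all genes was -0.12 on log2(TPM + 1) and -0.17 on log2(TPM + 0.1). On the latter the median of the other brown fat factors was -0.17 (-0.11 to 0.20 with 1 mouse left out). The median of the receptors was -0.0371 on log2(TPM + 1) and -0.0819 on log2(TPM + 0.1), and -0.0647 to 0.193 with 1 mouse left out (-0.0647 without WT replicate 1). The median of the processing proteins was -0.0340 on log2(TPM + 1), -0.0428 on log2(TPM + 0.1) and -0.0654 (without WT replicate 1) to 0.271 with 1 mouse left out. The cause of these shifts was not tested. Depth limits Lep, with 9 counts in ATF4 BKO replicate 2, and Agt, with 8 in ATF4 BKO replicate 1.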
